A study of Mus musculus with 38 samples.

Results

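The EGF receptor family and its ligands were followed here in cardiomyocytes, endothelial cells (ECs) and fibroblasts of the mouse heart after acute myocardial infarction (AMI). The genes were chosen by symbol. They are the 4 receptors Egfr, Erbb2, Erbb3 and Erbb4 and the 4 ligand genes Hbegf, Areg, Ereg and Nrg1, and these 8 symbols matched 9 of the 35682 gene rows of the count table. The ninth row is a second identifier with the symbol Nrg1 (ENSMUSG00000118541), which lies inside the span of the main Nrg1 gene and had 0 counts in all 38 libraries. Male C57BL/6 mice of 8 to 12 weeks formed 3 groups. Sham mice received vehicle (DMSO in saline) by mouth for 6 weeks and had the chest opened without ligation. Control-AMI mice received the same vehicle and then had 30 min of ischemia by ligation of the left anterior descending artery and 2 h of reperfusion. EMPA-Pre-AMI mice had the same ischemia and reperfusion after 6 weeks of the SGLT2 inhibitor empagliflozin (EMPA) at 10 mg/kg/d. Each library came from 2 pooled hearts, and the tissue below the suture was digested, so that it could hold ischemic and spared muscle side by side. Cardiomyocytes were pelleted and not sorted, giving 4 libraries of Sham, 5 of Control-AMI and 4 of EMPA-Pre-AMI. ECs were sorted as CD45- CD31+ cells, giving 4, 4 and 5 libraries in the same order. Fibroblasts were sorted as CD45- CD31- CD90+ cells, with 4 libraries in each group.

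Receptors of this family are tyrosine kinases that work in pairs. Egfr binds Hbegf, Areg and Ereg, Erbb3 and Erbb4 bind Nrg1 (neuregulin), and Erbb4 also binds Hbegf and Ereg. Erbb2 has no ligand of its own and is the preferred partner of the others, while Erbb3 has little kinase activity. The ligands are made as membrane proteins and are released by metalloproteinases. In the adult heart, neuregulin from endothelial cells acting on Erbb2 and Erbb4 of cardiomyocytes is the best known branch.

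The stretches that precede Egfr and Areg are shown because these genes stand at opposite ends of the measurements, Egfr with the largest changes and Areg with almost no reads. RefSeq promoters (GRCm38.p6 table, each found once in GRCm39) were given for 4 of the 8 members, Egfr, Erbb2, Erbb4 and Areg. Those of Erbb3, Hbegf, Ereg and Nrg1 were not used here. Each line holds the first 240 of the 250 bases before the RefSeq start, at chr11:16701953-16702192 (plus strand) for Egfr and at chr5:91287208-91287447 (plus strand) for Areg. Capitals mark a cyclic AMP response element.
Egfr: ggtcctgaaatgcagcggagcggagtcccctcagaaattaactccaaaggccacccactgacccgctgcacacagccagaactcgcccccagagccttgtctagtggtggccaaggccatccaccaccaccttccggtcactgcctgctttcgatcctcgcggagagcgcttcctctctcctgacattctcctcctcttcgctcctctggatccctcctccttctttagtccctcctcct
Areg: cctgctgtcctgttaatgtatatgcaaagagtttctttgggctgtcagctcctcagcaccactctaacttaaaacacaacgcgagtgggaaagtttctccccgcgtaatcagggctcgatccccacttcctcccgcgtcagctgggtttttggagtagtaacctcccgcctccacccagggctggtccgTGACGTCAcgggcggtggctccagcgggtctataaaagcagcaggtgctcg
Searches on both strands covered AP-1 (TGANTCA), the cyclic AMP response element (TGACGTCA), its core (TGACG or its reverse complement, matches that overlap being counted once) and the CArG box. The Areg stretch held the full element at bases -61 to -54 from the start and 2 cores, of which 1 lies inside the full element, whose palindrome holds the core on both strands. Egfr and Erbb4 held none of the 4 motifs, and Erbb2 held 1 core. Among 32851 promoters of the table, 1.55% held the full element, 17.77% the core, 6.75% AP-1 and 1.47% the CArG box. The share of G and C was 60.8% in the 250 bases of Egfr and 57.2% in those of Areg. These matches describe letters only.

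The libraries held 1352514 to 4509284 counts. Mitochondrial genes took 46.6% to 66.01% of the counts of cardiomyocyte libraries, while EC libraries had 4.52% to 14.6% and fibroblast libraries 3.48% to 12.5%. Levels are given in CPM, counts divided by the total of the library and brought to one common size, with TMM factors set within each population. A reading of 0 leaves room for up to 3 counts, which equal 0.665 to 2.22 CPM. Intervals and floors cover counting error only. The libraries are 3′ libraries, so levels were compared between samples and not between genes. Where Egfr is given as a percent of a marker list, that percent is likewise compared between libraries only, and its size has no meaning as a relative amount of RNA. A gene was called when its FDR (edgeR's quasi-likelihood test, Benjamini-Hochberg over all genes tested) was under 0.05. The populations carried their own markers. Summed over 9 cardiomyocyte markers, the level was 44457 to 96567 CPM in cardiomyocytes and at most 1056 in the other libraries. Over 10 endothelial markers, it was 5086 to 10488 in ECs and at most 3038 elsewhere. Over 9 fibroblast markers, it was 11627 to 18044 in fibroblasts, at most 5355 in ECs and at most 4331 in cardiomyocytes. In bulk libraries, fewer cells of a type and less RNA per cell cannot be told apart.

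In Sham hearts, fibroblasts had the highest Egfr, ECs the highest Nrg1, and Hbegf was high in ECs and cardiomyocytes. On a scale set over all 38 libraries, Egfr was 76.6 ± 7.35 CPM in Sham fibroblasts, 22.5 ± 5.68 in Sham cardiomyocytes and 0.959 ± 1.38 in Sham ECs (SD, n = 4 each). All 3 pairs were called, with log2 differences of -6.26 (SE 0.52) for ECs against fibroblasts, -1.77 (SE 0.37) for cardiomyocytes against fibroblasts and 4.48 (SE 0.55) for cardiomyocytes against ECs. The sizes that involve ECs rest on 11 counts of Egfr in the 4 Sham EC libraries together. Without Sham EC replicate 1, which held 8 of them, they were -7.63 and 5.85, and over all single libraries left out they ranged from -7.63 to -5.81 and from 4.03 to 5.85, always called. Nrg1 was 15.999 ± 6.34 CPM in ECs, 1.02 ± 1.20 in cardiomyocytes and 0.0638 ± 0.128 in fibroblasts. ECs exceeded fibroblasts by 7.10 (SE 1.03) on the log2 scale, against 1 count in the 4 fibroblast libraries together, so this size rests on the prior count of the fit. It was 8.30 without Sham fibroblast replicate 1, which held that count. Cardiomyocytes were lower than ECs, with a log2 difference of -3.99 (SE 0.86) that was -4.66 without Sham cardiomyocyte replicate 3, and the difference of cardiomyocytes and fibroblasts did not pass (3.11, SE 1.36, FDR = 0.0565). It passed without Sham cardiomyocyte replicate 1 or 2, Sham fibroblast replicate 1 or EMPA-Pre-AMI fibroblast replicate 2 (FDR of 0.0358, 0.0333, 0.0331 and 0.0474). Hbegf was 53.2 ± 20.3 CPM in ECs, 47.9 ± 5.13 in cardiomyocytes and 7.26 ± 4.64 in fibroblasts. Its log2 difference was 2.87 (SE 0.39) for ECs and 2.71 (SE 0.39) for cardiomyocytes, both against fibroblasts and both called, while ECs and cardiomyocytes differed by less than their spread on this scale. With factors set within each population, Sham Hbegf was 84.8 CPM in ECs and 21.1 in cardiomyocytes, so their likeness depends on the scaling. Erbb2 was 8.67 ± 3.93 CPM in ECs, 7.31 ± 2.30 in fibroblasts and 3.84 ± 0.92 in cardiomyocytes. Cardiomyocytes were called lower than ECs by 1.16 (SE 0.41, FDR = 0.0171), a call that was lost without Sham cardiomyocyte replicate 2 (FDR = 0.0594) or without Sham EC replicate 4 (FDR = 0.0874). Against fibroblasts the Erbb2 difference of -0.94 missed the threshold (FDR = 0.0567), and it passed without EMPA-Pre-AMI cardiomyocyte replicate 2, Sham fibroblast replicate 3 or Control-AMI fibroblast replicate 2 (FDR of 0.0453, 0.0307 and 0.0471). Ereg had 0, 2 and 5 counts in the Sham cardiomyocytes, ECs and fibroblasts together, and no pair was called (FDR of 0.332, 0.179 and 0.645). Called members were 3 of 5 tested for cardiomyocytes against ECs, where 52.9% of all 12085 genes were called, 2 of 5 for cardiomyocytes against fibroblasts, where 47.3% were, and 3 of 5 for ECs against fibroblasts, where 37.7% were. The count filter over all libraries admitted Nrg1 chiefly through Sham ECs (33 to 57 counts per library) and Ereg through infarcted fibroblasts. Which members were tested thus depended on the group where they were high, and these counts of called members are descriptions only. The fibroblast markers in unsorted cardiomyocytes move with the cardiomyocyte level of Egfr, as described further on, and their part in it was not tested.

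Within populations, few members had enough reads for a test. The filter kept Egfr and Hbegf in cardiomyocytes, Egfr, Erbb2, Hbegf and Nrg1 in ECs, and Egfr, Erbb2, Hbegf and Ereg in fibroblasts. It asks for a minimum level in as many libraries as the smallest group holds. Egfr of ECs (0 to 8 counts per Sham library) and Ereg of fibroblasts (0 to 2) entered through infarcted libraries. Nrg1 of ECs entered chiefly through Sham, with 33 to 57 counts per library. Their entry thus depended on the group where they were high, and the counts of called members below are descriptions only. Infarction with reperfusion moved 4 of these 10 gene and population pairs past the threshold. Egfr rose in ECs and fibroblasts, Ereg rose in fibroblasts and Nrg1 fell in ECs. EMPA-Pre-AMI differed from Control-AMI in Egfr of ECs alone among the 10 pairs, and whether populations differ in this is given further on. In Control-AMI versus Sham, 2 of 4 members tested were called in ECs, where 6.56% of 10438 genes were called (4.09% higher and 2.47% lower). In fibroblasts 2 of 4 were called, both higher, where 4.16% of 10691 genes were called and 2.99% were higher. In EMPA-Pre-AMI versus Sham, 1 of 4 was called in ECs, lower, where 2.71% of genes were called and 0.632% were lower. In fibroblasts 2 of 4 were called, both higher, where 5.11% were called and 3.65% were higher. In EMPA-Pre-AMI versus Control-AMI, 1 of 4 was called in ECs, lower, where 2.63% of genes were called and 2.28% were lower. In fibroblasts 0 of 4 were called there by edgeR, and 0 had an unadjusted p under 0.05. Of all 10691 genes, 0 (0%) were called there by edgeR and 0 by DESeq2, and 170 had an unadjusted p under 0.05. In cardiomyocytes edgeR called 0 of 2 members in each comparison, where 0.0655% of 9167 genes were called for Control-AMI versus Sham, 0.0218% for EMPA-Pre-AMI versus Control-AMI and 0.338% for EMPA-Pre-AMI versus Sham. Of the 2 cardiomyocyte members, 0, 1 and 2 had an unadjusted p under 0.05 in that order, and DESeq2 called 0, 1 and 1. The percentages above are those of edgeR. Of all 9167 genes, 249, 2295 and 1672 had an unadjusted edgeR p under 0.05, and DESeq2 called 18, 812 and 198. Within a population any 2 of the 3 comparisons share the libraries of 1 group, so their values are not independent.

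**Figure D1:**
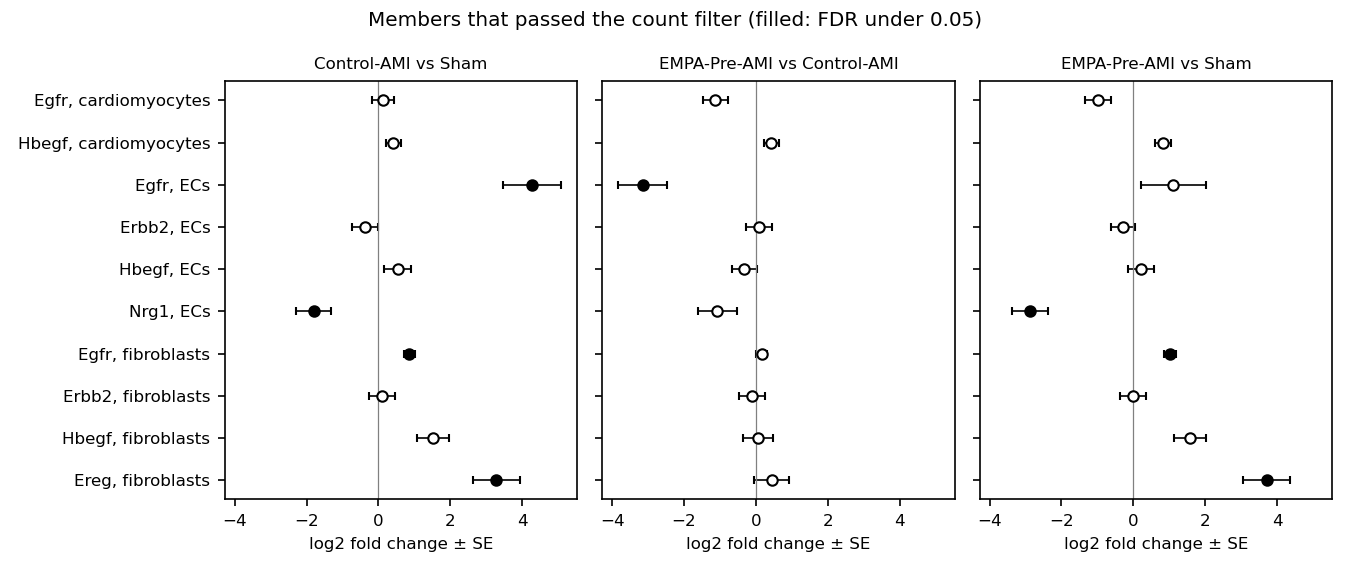
Each panel is 1 comparison and each point 1 member in 1 population, with its log2 fold change and SE from edgeR and a filled point where the FDR was under 0.05. Egfr in ECs lies at 4.27 in Control-AMI versus Sham and at -3.15 in EMPA-Pre-AMI versus Control-AMI, whereas Egfr in fibroblasts lies at 0.86 and 0.16.

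Egfr (ENSMUSG00000020122, chr11:16702198-16868158, plus strand) was the member with the largest change. In fibroblasts, the Sham libraries stood at 125, 99.9, 114 and 114 CPM, Control-AMI at 224, 187, 203 and 207, and EMPA-Pre-AMI at 270, 205, 210 and 234. Every infarcted library lay above every Sham library, and the 2 infarcted groups overlapped. Control-AMI exceeded Sham by 0.86 (SE 0.15, FDR = 0.00415) on the log2 scale and EMPA-Pre-AMI exceeded Sham by 1.02 (SE 0.15, FDR = 0.00111). Between EMPA-Pre-AMI and Control-AMI the difference was 0.16 (SE 0.15), within the spread. The number after S in each label was read here as a sample-sheet number. It was split into the runs 1 to 8, 9 to 23, 25 to 34 and 37 to 67, a descriptive split and not a stated batch. No gap lies between 8 and 9, and the run 1 to 8 holds fibroblasts only. By the paper's account, all libraries were prepared and sequenced together. In the run 1 to 8, Egfr was 99.9 to 114 CPM in 3 Sham libraries, 207 in 1 Control-AMI library and 234 in 1 EMPA-Pre-AMI library. In the run 37 to 67 it was 125 in 1 Sham library, 187 to 224 in 3 Control-AMI libraries and 205 to 210 in 2 EMPA-Pre-AMI libraries. The order of Sham below the infarcted groups held in both. Of the 9 fibroblast markers 0 were called in any fibroblast comparison. A list of 9 mural markers, cells that the CD90 gate could also hold, summed to 713 to 2017 CPM in Sham, 633 to 4227 in Control-AMI and 1105 to 2256 in EMPA-Pre-AMI, with 1 of 9 called higher in each infarcted group, and its part in the fibroblast values was not tested.

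In ECs, Egfr was near the floor in Sham. The 4 Sham libraries held 8, 3, 0 and 0 counts (4.72, 1.43, 0 and 0 CPM) and the 4 Control-AMI libraries 121, 24, 28 and 54 counts (54.9, 14.0, 18.7 and 33.6 CPM). The 5 EMPA-Pre-AMI libraries held 8, 15, 2, 1 and 4 counts (4.31, 8.11, 1.13, 0.618 and 2.39 CPM). All Control-AMI libraries lay above all others, and Sham and EMPA-Pre-AMI overlapped. Control-AMI exceeded Sham by 4.27 (SE 0.81, FDR = 0.0058) on the log2 scale, and summed counts gave a ratio of 21.4 (95% interval of 11.8 to 43.6). EMPA-Pre-AMI was 3.15 below Control-AMI (log2 difference of -3.15, SE 0.67, FDR = 0.0189), with a ratio of 0.106 (0.0698 to 0.155). EMPA-Pre-AMI and Sham differed by 1.12 (SE 0.92, FDR = 0.638). Egfr was among the genes that the study itself picked from its EC results for measurement by PCR, so its change in ECs is not independent evidence of that choice.

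Genes of fibroblasts moved with Egfr in these EC libraries. Of the 9 fibroblast markers 8 were tested, and 7 were called higher in Control-AMI than in Sham and 8 lower in EMPA-Pre-AMI than in Control-AMI. Their summed level (all-library scale) was 407 to 1063 CPM in Sham, 5355, 1434, 1575 and 2998 in the Control-AMI replicates 1 to 4, and 351 to 712 in EMPA-Pre-AMI. None of the 9 was at 0 in a group. The fibroblast marker Dcn averaged 492, 1880 and 352 CPM in the 3 groups, and Thy1, which encodes the CD90 of the fibroblast gate, 5.34, 13.6 and 4.92. The 10 endothelial markers summed to 9624 to 10488 CPM in Sham, 5086 to 6940 in Control-AMI and 6925 to 10196 in EMPA-Pre-AMI, and 3 of the 10 were called lower in Control-AMI than in Sham. Set against the fibroblast list, Egfr was 0.623% to 0.762% of its sum in Control-AMI ECs and 0.885% to 1.03% in Control-AMI fibroblasts. The same share was 0% to 0.559% in Sham ECs, 0.426% to 0.612% in Sham fibroblasts, 0.11% to 0.716% in EMPA-Pre-AMI ECs and 0.968% to 1.25% in EMPA-Pre-AMI fibroblasts. Leukocyte markers summed to 6.44 to 22.99, 23.6 to 458 and 11.2 to 90.5 CPM in Sham, Control-AMI and EMPA-Pre-AMI, with 0 of 5 tested called. What part RNA of other cells had in the EC values of Egfr was not tested. Among the EC libraries, the one with the highest fibroblast list, Control-AMI replicate 1, also had the most Egfr.

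**Figure D2:**
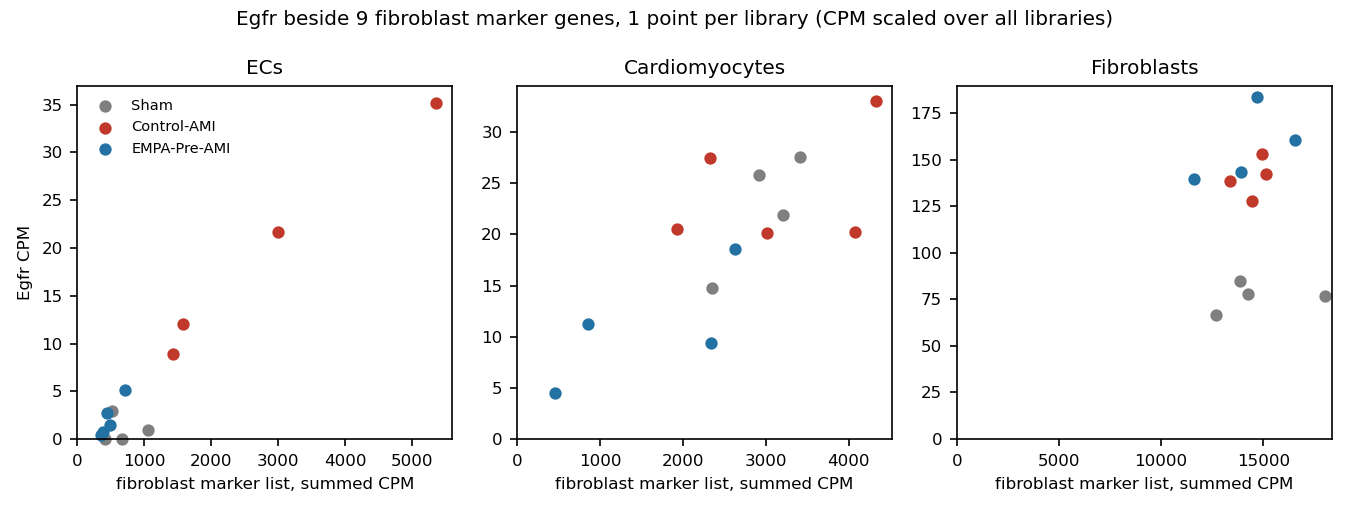
Each point is 1 library, with the summed CPM of 9 fibroblast marker genes on the horizontal axis and the CPM of Egfr on the vertical axis, both scaled over all libraries and coloured by group, with axes set per panel. The 4 Control-AMI EC libraries hold 1434 to 5355 CPM of the list and lie above the other EC libraries in Egfr. Both infarcted fibroblast groups lie above Sham fibroblasts in Egfr at like levels of the list and overlap with each other.

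The EC calls of Egfr rested on few libraries. The difference of EMPA-Pre-AMI from Control-AMI lost its call without Control-AMI replicate 1 or 4 (FDR of 0.0660 and 0.0522) and without EMPA-Pre-AMI replicate 1, 3, 4 or 5 (FDR of 0.0578, 0.0566, 0.0531 and 0.0702). Control-AMI versus Sham kept its call without any single library (log2 difference of 3.81 to 5.67, the highest without Sham replicate 1), and EMPA-Pre-AMI versus Control-AMI ranged from -3.79, without EMPA-Pre-AMI replicate 2, to -2.71. Control-AMI replicates 1 and 4 had the highest fibroblast list and were also the only EC libraries with sample-sheet numbers 37 to 67. Without both, a choice made after the data were seen, Control-AMI versus Sham was 3.38 (FDR = 0.0551) and EMPA-Pre-AMI versus Control-AMI was -2.28 (FDR = 0.425). Within the run 9 to 23, Egfr was 0 to 1.43 CPM in 3 Sham libraries, 14.0 to 18.7 in 2 Control-AMI libraries and 1.13 to 8.11 in 3 EMPA-Pre-AMI libraries, still without overlap of Control-AMI with the others. With the run as a term, the differences were 3.402 (FDR = 0.0758) and -2.28 (FDR = 0.612).

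The change of Egfr was compared between populations in the model of all libraries, which treats libraries that share hearts as independent. ECs exceeded fibroblasts in the Control-AMI change by 3.43 (SE 0.66, FDR = 0.00229), 1 of 5 members called where 3.22% of genes were. In the EMPA-Pre-AMI change from Control-AMI, ECs lay below fibroblasts by a log2 difference of -3.34 (SE 0.56, FDR = 0.000622), again 1 of 5, where 2.04% of genes were called. Against cardiomyocytes, the EC change in Control-AMI was larger by 4.18 (SE 0.68, FDR = 0.00118), 1 of 5 where 1.51% of genes were called. The EMPA-Pre-AMI change differed by -2.003 (SE 0.64, FDR = 0.114), with 0 of 5 called by edgeR, which called 0.993% of genes. DESeq2 called 1 of 5, and its share of all genes was not counted. As for the Sham pairs, the filter over all libraries chose these 5 members, so the counts are descriptions only. Without Control-AMI EC replicates 1 and 4 the called differences were 2.50, -2.41 and 3.25, with FDR of 0.0781, 0.101 and 0.0706. Leaving out single libraries, these 3 kept their calls and ranged from 2.95 to 4.80, from -3.97 to -2.86 and from 3.70 to 5.55. The values of 4.80 and 5.55 were those without Sham EC replicate 1, and -3.97 was that without EMPA-Pre-AMI EC replicate 2. The fourth, uncalled difference passed without EMPA-Pre-AMI EC replicate 2 (FDR = 0.0404).

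In cardiomyocytes, Egfr was 9.57, 6.55, 11.3 and 12.2 CPM in Sham, 11.8, 9.14, 8.87, 15.3 and 9.04 in Control-AMI and 5.15, 4.84, 1.98 and 8.09 in EMPA-Pre-AMI. EMPA-Pre-AMI lay below Control-AMI in every library and overlapped with Sham. The difference from Control-AMI was -1.13 (SE 0.35, FDR = 0.0743) and that from Sham -0.99 (SE 0.36, FDR = 0.188), both short of the threshold, and Control-AMI and Sham differed by 0.14 (SE 0.31). Without EMPA-Pre-AMI replicate 4 both EMPA-Pre-AMI differences passed, at -1.54 (FDR = 0.0116) and -1.41 (FDR = 0.0308). That replicate was the only EMPA-Pre-AMI cardiomyocyte library in the run 37 to 67, which held all Sham and Control-AMI libraries, and its 8.09 CPM lay within the Sham range of 6.55 to 12.2 and under the Control-AMI range of 8.87 to 15.3. The fibroblast list summed to 2351 to 3416 CPM in Sham, 1929 to 4331 in Control-AMI and 854, 2337, 458 and 2623 in EMPA-Pre-AMI replicates 1 to 4, and 0 of its 8 tested genes were called. Relative to the list, Egfr was 0.628% to 0.885% in Sham, 0.496% to 1.18% in Control-AMI and 0.401% to 1.32% in EMPA-Pre-AMI, ranges that overlap. The part of fibroblast RNA in the level was not tested.

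Erbb2 (ENSMUSG00000062312, chr11:98303203-98328542, plus strand), the shared partner of the other receptors, did not pass the threshold within ECs or fibroblasts, where it was tested. In ECs it was 7.61 to 21.5 CPM in Sham, 6.85 to 14.0 in Control-AMI and 8.65 to 13.2 in EMPA-Pre-AMI. Fibroblasts had 6.505 to 14.6, 6.90 to 19.9 and 9.73 to 12.6 CPM in the same order. Its log2 differences ran from -0.37 to 0.10 in these populations, each close to its SE of 0.34 to 0.37 or smaller. Cardiomyocytes held 4 to 13 counts a library, under the filter.

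Erbb3 and Erbb4 bind neuregulin. Erbb3 (ENSMUSG00000018166, chr10:128403392-128425811, minus strand) had 0 counts in all 13 EC libraries, which allows up to 1.37 to 2.22 CPM per library. In cardiomyocytes its counts were 4, 9, 3 and 6 in Sham, 1, 2, 0, 2 and 0 in Control-AMI and 1, 3, 4 and 7 in EMPA-Pre-AMI. Sham and Control-AMI did not overlap, with 22 against 5 counts in all and a ratio of 0.210 (counting interval of 0.0621 to 0.568) for Control-AMI to Sham, and the gene was too low for the test across genes. Fibroblast libraries held 1 to 13 counts, the most in Sham replicate 3. A list of 7 Schwann cell markers, a cell type known for Erbb3, summed to 46.3 to 70.6 CPM in Sham, 43.9 to 68.6 in Control-AMI and 35.1 to 62.2 in EMPA-Pre-AMI cardiomyocytes, and its part in the Erbb3 counts was not tested. Erbb4 (ENSMUSG00000062209, chr1:68071345-69147619, minus strand) was likewise at 0 in all 13 EC libraries. Its cardiomyocyte counts were 1, 4, 2 and 4 in Sham, 7, 4, 2, 3 and 3 in Control-AMI and 2, 5, 15 and 4 in EMPA-Pre-AMI. The ratio of EMPA-Pre-AMI to Sham was 3.44 (1.64 to 7.72) in summed counts, of which 15 of 26 came from EMPA-Pre-AMI replicate 3. Of the 12 fibroblast libraries 2 had Erbb4 reads, with 3 and 1 counts.

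The ligands differed in where and when they were read. Neuregulin 1, Nrg1 (ENSMUSG00000062991, chr8:32303906-33374825, minus strand), was a transcript of ECs in these data, with at most 3 counts in any cardiomyocyte library and at most 6 in any fibroblast library. In Sham ECs it was 19.5, 25.7, 17.0 and 39.6 CPM, in Control-AMI 4.08, 14.6, 7.35 and 3.11, and in EMPA-Pre-AMI 5.38, 4.33, 1.13, 0.618 and 5.39. Every Sham library lay above every infarcted library, and the 2 infarcted groups overlapped. Control-AMI was lower than Sham by a log2 difference of -1.80 (SE 0.49, FDR = 0.0292) and EMPA-Pre-AMI by -2.87 (SE 0.49, FDR = 0.00134), whereas EMPA-Pre-AMI and Control-AMI differed by -1.07 (SE 0.54, FDR = 0.427). The Control-AMI call was lost without Sham replicate 2 or 4 (FDR of 0.0643 and 0.121), without Control-AMI replicate 1, 3 or 4 (FDR of 0.0995, 0.0557 and 0.0873), with the sample-sheet run as a term (-1.27, FDR = 0.275) and without Control-AMI replicates 1 and 4 together (-1.18, FDR = 0.315). The EMPA-Pre-AMI call versus Sham held without any single library, at -3.10 to -2.59. In the run 9 to 23, Nrg1 was 17.0 to 39.6 CPM in 3 Sham, 7.35 to 14.6 in 2 Control-AMI and 1.13 to 5.38 in 3 EMPA-Pre-AMI libraries, with no overlap. The summed endothelial list was lower in Control-AMI than in Sham, as given above, and a list of 4 endocardial markers summed to 279 to 592, 150 to 654 and 173 to 514 CPM in the 3 groups. Their part in the Nrg1 values was not tested.

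**Figure D3:**
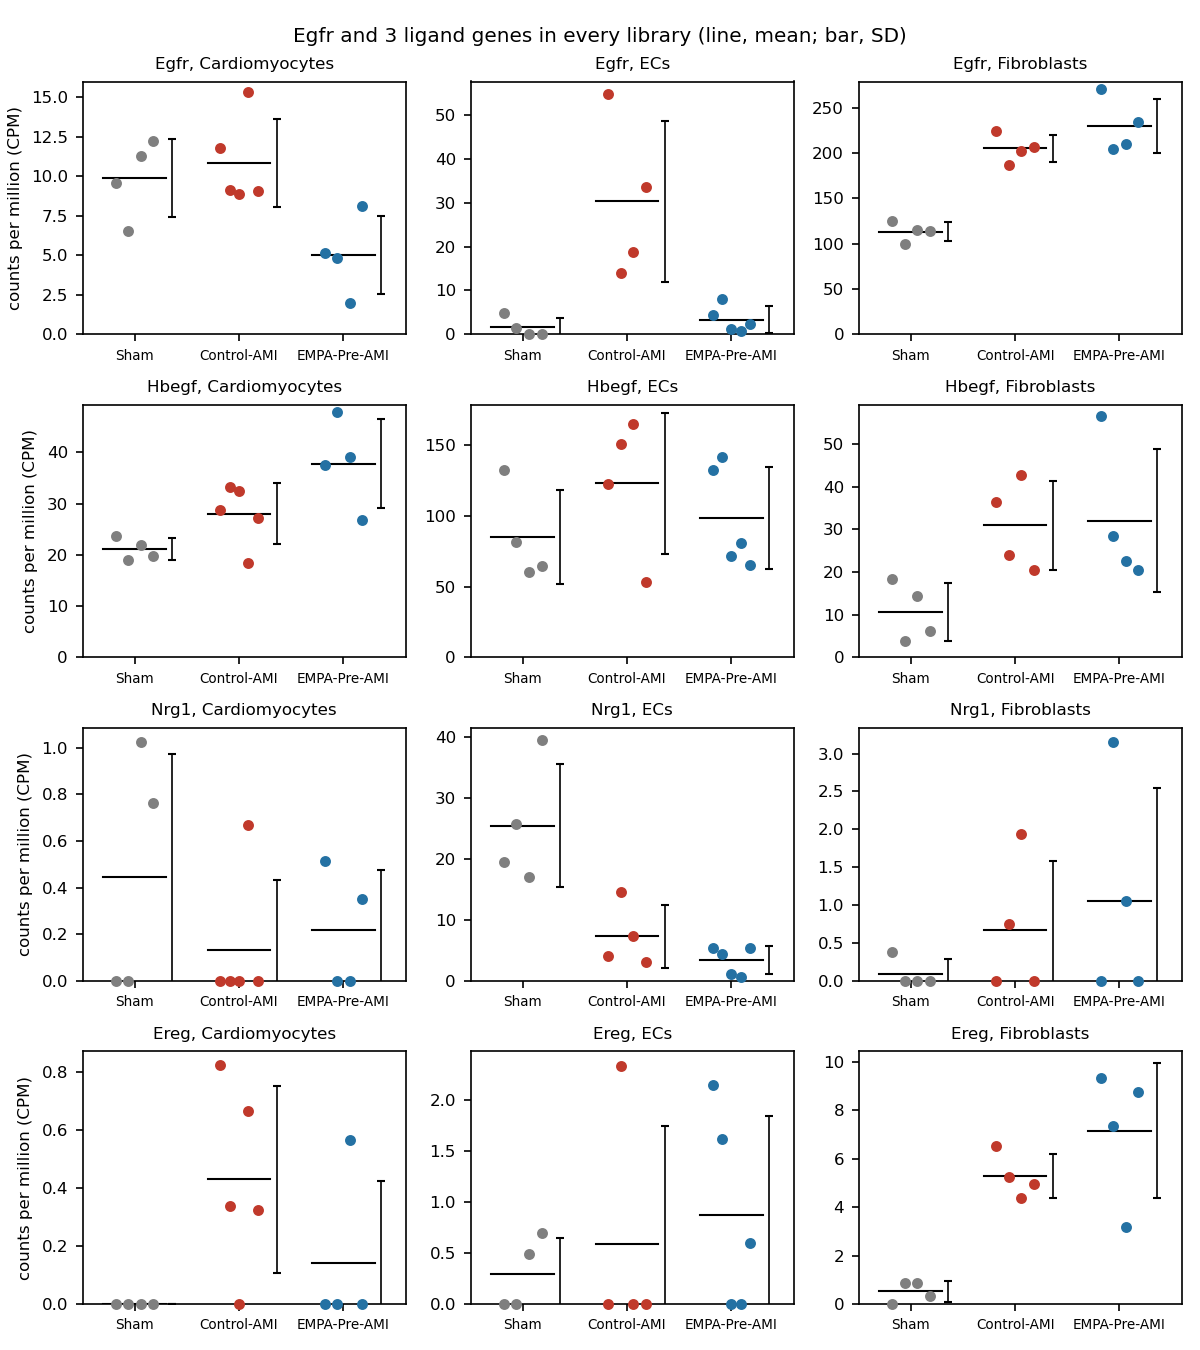
Rows are Egfr, Hbegf, Nrg1 and Ereg and columns the 3 populations, with 1 point per library in CPM scaled within the population, a line at the mean and a bar for the SD, cut at 0 where it would pass it. Nrg1 in ECs separates Sham (17.0 to 39.6 CPM) from the infarcted groups, Ereg in fibroblasts does so in the other direction, and Nrg1 outside ECs reaches at most 3.16 CPM.

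Epiregulin, Ereg (ENSMUSG00000029377, chr5:91222157-91241505, plus strand), is a ligand of Egfr and Erbb4 that many cells make after stimulation. In fibroblasts the Sham libraries held 0, 2, 2 and 1 counts, Control-AMI 17, 14, 9 and 12, and EMPA-Pre-AMI 18, 14, 6 and 18. Sham did not overlap with the infarcted groups, which overlapped with each other. The mean level was 0.522 ± 0.429 CPM for Sham, 5.27 ± 0.91 for Control-AMI and 7.16 ± 2.79 for EMPA-Pre-AMI (SD, n = 4 each). Control-AMI exceeded Sham by 3.27 (SE 0.65, FDR = 0.00875) and EMPA-Pre-AMI by 3.71 (SE 0.65, FDR = 0.00338). With 5 Sham counts in all, the ratio of summed counts was 10.8 (4.36 to 34.7) for Control-AMI and 14.6 (5.91 to 46.8) for EMPA-Pre-AMI. The groups did not differ from each other beyond their spread (0.44, SE 0.50). In both runs with Sham fibroblasts the order was the same, with 1 to 2 counts in Sham against 12 and 18 in the run 1 to 8, and 0 against 6 to 17 in the run 37 to 67. Elsewhere Ereg was scarce, with 0 to 3 counts in cardiomyocytes and 0 to 4 in ECs. A list of 10 leukocyte markers, cells that also make Ereg, summed to 12.9 to 25.4 CPM in the infarcted fibroblast groups. In Sham fibroblasts the list summed to 7.15 to 369 CPM, highest in Sham replicate 2. Of its 3 tested genes 0 were called, and its part in the Ereg values was not tested.

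Heparin-binding EGF-like growth factor, Hbegf (ENSMUSG00000024486, chr18:36637980-36649677, minus strand), a ligand of Egfr and Erbb4, was read in all populations. In fibroblasts it was 18.4, 3.96, 14.3 and 6.15 CPM in Sham, 36.4, 24.03, 42.6 and 20.6 in Control-AMI and 56.6, 28.4, 22.7 and 20.4 in EMPA-Pre-AMI. All infarcted libraries lay above all Sham libraries, and yet neither comparison passed the threshold, with 1.52 (SE 0.44, FDR = 0.0658) for Control-AMI and 1.57 (SE 0.44, FDR = 0.0523) for EMPA-Pre-AMI versus Sham. Leaving out Sham replicate 1, the highest of its group, gave 1.93 (FDR = 0.0245) and 1.98 (FDR = 0.0200), and single omissions of EMPA-Pre-AMI replicate 1 (Control-AMI versus Sham, FDR = 0.0414) and of Control-AMI replicate 4 (EMPA-Pre-AMI versus Sham, FDR = 0.0425) also brought it past the threshold. DESeq2 called both (FDR of 0.0127 and 0.00925), and with the sample-sheet run as a term Control-AMI versus Sham was called (1.19, FDR = 0.0389). With the replicate number as a block, edgeR called both (1.63, FDR = 0.00607, and 1.64, FDR = 0.00561). In cardiomyocytes Hbegf was 23.7, 18.9, 21.9 and 19.8 CPM in Sham, 28.8, 33.2, 32.5, 18.3 and 27.1 in Control-AMI and 37.6, 47.8, 39.05 and 26.7 in EMPA-Pre-AMI. EMPA-Pre-AMI lay above Sham in every library, by 0.83 (SE 0.22, FDR = 0.105), and overlapped with Control-AMI (0.42, SE 0.21, FDR = 0.214). That difference from Sham passed with DESeq2 (FDR = 0.0261) and without EMPA-Pre-AMI replicate 4 (0.97, FDR = 0.0118), the replicate in the run of the other groups. Leukocyte markers summed to 47.7 to 107 CPM in Sham, 62.8 to 228 in Control-AMI and 63.01 to 444 in EMPA-Pre-AMI cardiomyocytes. Of 5 tested, 1 was called higher in each infarcted group versus Sham, and their part in the Hbegf values was not tested. In ECs the level was high and variable, at 84.8 ± 33.2 CPM for Sham (n = 4), 123 ± 49.5 for Control-AMI (n = 4) and 98.4 ± 35.8 for EMPA-Pre-AMI (n = 5), and the groups overlapped.

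Amphiregulin, Areg (ENSMUSG00000029378, chr5:91287451-91296291, plus strand), a ligand of Egfr alone and a neighbour of Ereg, had 1 count in each of 5 libraries and 0 in the other 33. It was not detectable at this depth in any group.

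The other genes of the pathway came from 5 lists of 70 genes in all. They are 7 other ligands, 8 genes of ligand release, 18 genes that restrain the receptors, 26 adaptors and kinases and 11 targets of the ERK pathway. In fibroblasts 58 were tested, and 6 rose and 1 fell in Control-AMI versus Sham, where 2.99% of all genes were called higher and 1.17% lower. The median log2 change of the 58 was 0.13, and that of all genes tested -0.03. In the target list 2 of 9 tested rose, the AP-1 subunit Fosl1 by 4.37 (SE 0.75, from 1.02 ± 1.15 to 23.1 ± 14.2 CPM, FDR = 0.00439) and the ERK phosphatase Dusp5 by 1.64 (SE 0.39, FDR = 0.0249). Sham levels of both were low (4.11 ± 2.31 CPM for Dusp5), so they entered the test through infarcted libraries. With Sham near the floor, the Fosl1 size rests on few Sham counts. As for the members, the counts of called pathway genes are descriptions only. Among the genes of restraint 3 of 17 tested rose. Errfi1, an inhibitor that binds the receptor's kinase, rose by 1.94 (SE 0.33, FDR = 0.00427), from 186 ± 46.6 to 713 ± 251 CPM. Ptpn1, a phosphatase of the receptor, rose by 1.17 (SE 0.18, FDR = 0.00128), and Cblb, a ubiquitin ligase that marks receptors for breakdown, by 1.10 (SE 0.23, FDR = 0.0124). Of 25 adaptors and kinases tested, Stat3, which receptor kinases and interleukin-6 family cytokines both activate, rose by 1.19 (SE 0.24, FDR = 0.0103). In the list of ligand release, the metalloproteinase Adam19, known to cleave neuregulin, fell by 1.46 on the log2 scale (SE 0.24, FDR = 0.00222), from 266 ± 70.2 to 96.8 ± 27.4 CPM.

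EMPA-Pre-AMI fibroblasts showed a like picture against the same Sham libraries. Of the 58 genes 9 rose and 3 fell, where 3.65% of all genes were called higher and 1.46% lower, with a median of 0.09 against -0.03 for all genes. The largest rises by list were Fosl1 at 4.508 (FDR = 0.00358), Myc at 2.51 (FDR = 0.0133) and Dusp5 at 1.80 (FDR = 0.0137) among the targets, Errfi1 at 1.80 (FDR = 0.00638), Cblb at 1.13 (FDR = 0.00995) and Ptpn1 at 1.07 (FDR = 0.00217) in restraint, and Stat3 at 1.08 (FDR = 0.0172) among adaptors and kinases. Myc, at 2.88 ± 2.51 CPM in Sham, entered the test through infarcted libraries, as did Fosl1 and Dusp5. Spred1 and Ptprj, of restraint, rose as well. The adaptor Gab1 fell by 1.21 (FDR = 0.0492), Stat5b by 0.98 (FDR = 0.0483) and Adam19 by 1.47 (FDR = 0.00214), all on the log2 scale. Between EMPA-Pre-AMI and Control-AMI fibroblasts edgeR called 0 of 58, DESeq2 called 0, and 1 had an unadjusted p under 0.05. Of all 10691 genes, 170 had an unadjusted edgeR p under 0.05 there.

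**Figure D4:**
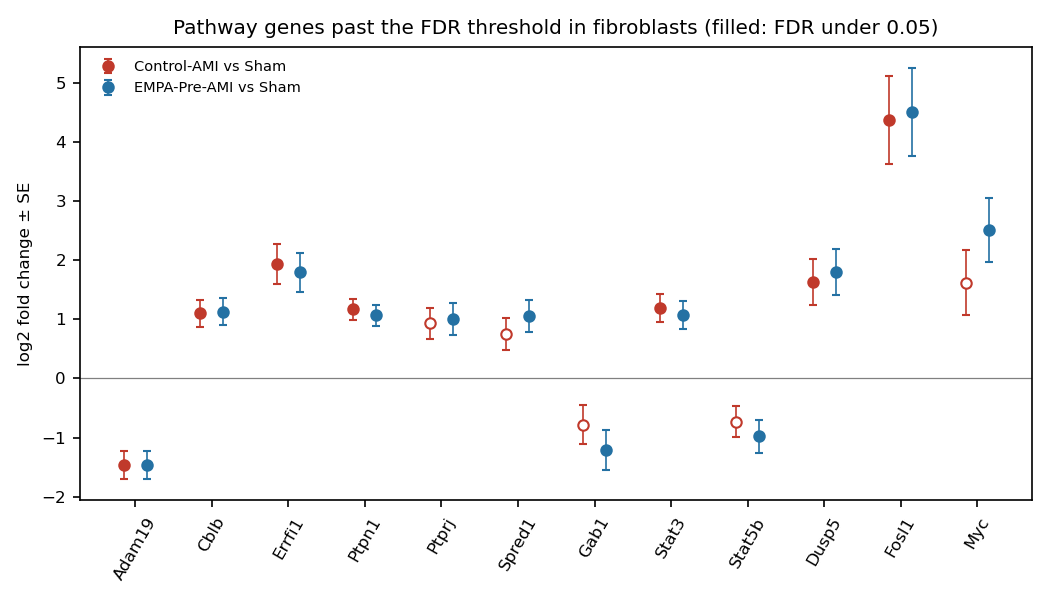
The 12 pathway genes called in fibroblasts in either comparison with Sham are ordered by list, with log2 fold change and SE for Control-AMI and EMPA-Pre-AMI against the same 4 Sham libraries and filled points where the FDR was under 0.05. Fosl1 lies highest, at 4.37 and 4.508, and Adam19 lowest, at -1.46 and -1.47.

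In ECs 56 pathway genes were tested, and 3 rose and 0 fell in Control-AMI versus Sham, where 4.09% of all genes were called higher and 2.47% lower, with a median of 0.05 against -0.02 for all genes. Stat3 rose by 0.70 (SE 0.17, FDR = 0.0133), Ptpn1 by 0.61 (SE 0.17, FDR = 0.0373) and Phlda1, an ERK target that restrains growth factor signalling, by 1.40 (SE 0.39, FDR = 0.0479). In EMPA-Pre-AMI versus Control-AMI 1 of 56 was called, where 2.63% of all genes were, 2.28% as lower. Pik3r2, a regulatory subunit of phosphoinositide 3-kinase, fell by 2.61 on the log2 scale (SE 0.40, FDR = 0.00206), from 28.3 ± 16.4 to 4.64 ± 2.07 CPM, and without Control-AMI replicates 1 and 4, the EC libraries with the highest fibroblast list, the count was 0. Of 8 fibroblast markers tested, 7 were called higher in Control-AMI than in Sham ECs and 8 lower in EMPA-Pre-AMI than in Control-AMI ECs, Stat3 and Ptpn1 also rose in fibroblasts, and the part of fibroblast RNA in these EC values was not tested. In EMPA-Pre-AMI versus Sham 1 rose, Stat3 by 0.68 (SE 0.16, FDR = 0.0188), where 2.08% of all genes were called higher. These EC counts ranged from 1 to 6, from 1 to 3 and from 0 to 3 when single libraries were left out. In cardiomyocytes edgeR called 0 of 53 tested in each comparison, DESeq2 called 0, 1 and 1, and 2, 11 and 5 had an unadjusted p under 0.05 for Control-AMI versus Sham, EMPA-Pre-AMI versus Control-AMI and EMPA-Pre-AMI versus Sham. Of all 9167 genes, DESeq2 called 18, 812 and 198 in that order. An unadjusted edgeR p under 0.05 was met by 249, 2295 and 1672 of them.

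Likeness across the 38 libraries (Pearson's r of log2 CPM) was taken as a description, since libraries share populations and depth. Egfr was most like Medag (r = 0.978), Crispld2 (r = 0.973) and Aspn (r = 0.972). Hbegf was most like Arhgap26 (r = 0.907), Gpr146 (r = 0.883) and Ptpn4 (r = 0.876). Nrg1 was nearest to Hapln1 (r = 0.818), Prickle1 (r = 0.817) and Cnot6l (r = 0.814), and Ereg to Sdc4 (r = 0.852), Cry2 (r = 0.821) and Ifrd1 (r = 0.793). Erbb2 had no near neighbour, with Ttc5 (r = 0.631) first, then Kansl1 and Itprid2 (r = 0.621 each).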

How the data were processed

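RNA of 38 libraries was measured with a 3′ kit (QuantSeq FWD). Per the labels and methods, the authors trimmed reads with cutadapt 2.8, assigned them with Salmon to GRCm39 (Ensembl release 106) and deposited estimated counts of each gene that were not normalized. Of the values, 4.55% were not whole and were rounded here. Whether counting used strand is not given in the sources used here. Symbols and positions came from the GENCODE annotation of GRCm39. Tests used R 4.3.3 and edgeR 4.0.16 (filterByExpr with a minimum count of 10, TMM, robust glmQLFit and glmQLFTest) on the 3 groups of each population, and on 9 groups together for differences between populations, with Benjamini-Hochberg adjustment over all genes tested. SE is the log2 difference divided by the root of F. Log2 CPM used a prior count of 2. DESeq2 1.42.0 and the other alternatives are in the closing section.

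The p-values measure the spread between libraries of pooled hearts. By the methods, ECs and fibroblasts were sorted from the supernatant of the digest that gave the cardiomyocyte pellet, so libraries of different populations drew on shared hearts. Which libraries share hearts is not stated, nor whether those of one number do, so they were treated as separate samples. The tests between populations therefore do not account for shared hearts. In 62 pairs drawn from within a group, the chi-square per gene was 4.60 to 87.1, so no library was counted as a copy. All 8 members were described, and in the other pathway genes up to 3 called genes of the largest change per list and comparison were named with values. Spred1 and Ptprj, beyond this rule, were named after their values were seen. The members and lists were chosen with earlier results of these data known. The scripts were tested on simulated data before use.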

Additional observations from a re-analysis of the deposited data

Results flagged for a closer look

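The change of Egfr differed between populations by a test of the difference itself in 3 cases. For Control-AMI versus Sham, the log2 change was larger in ECs than in fibroblasts by 3.43 (edgeR, FDR = 0.00229) and larger than in cardiomyocytes by 4.18 (FDR = 0.00118). For EMPA-Pre-AMI versus Control-AMI, ECs and fibroblasts differed by -3.34 (FDR = 0.000622). The fibroblast marker list moved with Egfr in the EC libraries, and its part in these differences was not tested. Among 30 groups of a tested member, 0 held a library that stood apart from the others by Dixon's rule.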

How the results depend on the processing

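Alternatives were DESeq2, other scalings and filters, no robust estimation, only the 2 groups compared, an FDR of 0.1, the mean of 3 groups for populations, the replicate number as a block, the run of sample-sheet numbers as a term, each library left out, and, chosen after seeing the data, ECs without Control-AMI replicates 1 and 4. Of 19 called log2 changes of members, 0 reversed, and over 669 alternatives 647 kept the call and 22 lost it. The other 46 passed in 32 of 1551 alternatives and changed sign, uncalled both ways, in 38. Alternatives whose filter left a member untested are not in these totals. In the model of all libraries, many omitted libraries lay outside the contrast, so the totals do not rate any 1 call. Single omissions lost the EC call in 6 of 13 for Egfr (EMPA-Pre-AMI versus Control-AMI) and 5 of 13 for Nrg1 (Control-AMI versus Sham). Causes were not tested unless stated.

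Called members became 1 with DESeq2 in cardiomyocytes (EMPA-Pre-AMI versus Control-AMI and versus Sham) and in ECs minus cardiomyocytes (EMPA-Pre-AMI versus Control-AMI), and 1 at an FDR of 0.1 in cardiomyocytes (EMPA-Pre-AMI versus Control-AMI). For Sham cardiomyocytes against fibroblasts they were 4 with DESeq2 and with the mean of 3 groups. With at least 10 counts in every library, they were 0 in each EC comparison and 1 in fibroblasts for both groups versus Sham. That filter leaves Egfr and Nrg1 of ECs and Ereg of fibroblasts untested. They were 1 in EMPA-Pre-AMI versus Sham fibroblasts with only the 2 groups. With the run term they were 0 in ECs for Control-AMI versus Sham and EMPA-Pre-AMI versus Control-AMI, as without Control-AMI EC replicates 1 and 4, where the 3 called differences between populations also went to 0.

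Called pathway genes in ECs, Control-AMI versus Sham, were 10 with DESeq2, 5 without robust estimation, 7 with no filter, 6 with the replicate block, 1 with the run term and 11 at an FDR of 0.1. In EMPA-Pre-AMI versus Control-AMI they were 2 with DESeq2 and at an FDR of 0.1, and 0 with 10 counts in every library, the run term or the 2 libraries left out. In EMPA-Pre-AMI versus Sham they were 4 with DESeq2, with only the 2 groups and with the 2 libraries left out, 3 with no filter, the run term or an FDR of 0.1, and 2 without robust estimation, with 10 counts in every library or the block. In cardiomyocytes, EMPA-Pre-AMI versus Control-AMI, they were 1 with DESeq2 or no filter and 2 at an FDR of 0.1, and 1 versus Sham with DESeq2. In fibroblasts, Control-AMI versus Sham, they were 11 with DESeq2 and with the run term.

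Leaving out single libraries, called members ranged from 1 to 2 in ECs for Control-AMI versus Sham, 0 to 1 for EMPA-Pre-AMI versus Control-AMI in ECs, in cardiomyocytes and in ECs minus cardiomyocytes, and 0 to 2 in cardiomyocytes for EMPA-Pre-AMI versus Sham. Called pathway genes ranged from 1 to 6, 1 to 3 and 0 to 3 in ECs (Control-AMI versus Sham, EMPA-Pre-AMI versus Control-AMI and versus Sham), 0 to 3 and 0 to 2 in cardiomyocytes (EMPA-Pre-AMI versus Control-AMI and versus Sham) and 7 to 12 in fibroblasts (EMPA-Pre-AMI versus Sham).

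These uncalled log2 changes turned sign. With the run term, Erbb2 was -0.080 in ECs (EMPA-Pre-AMI versus Control-AMI) and -0.055 in fibroblasts (Control-AMI versus Sham), and Hbegf was -0.066 in cardiomyocytes and -0.28 in fibroblasts (EMPA-Pre-AMI versus Control-AMI). Erbb2 was -0.022 for Sham ECs against fibroblasts with the mean of 3 groups. Without Control-AMI EC replicates 1 and 4, Erbb2 was -0.053 in ECs and Ereg -0.84 in ECs minus fibroblasts (EMPA-Pre-AMI versus Control-AMI), and Nrg1 0.40 in ECs minus cardiomyocytes (Control-AMI versus Sham). Without single libraries, Egfr ranged from -0.024 to 0.25 in cardiomyocytes (Control-AMI versus Sham). Erbb2 ranged from -0.067 to 0.23 in ECs and -0.22 to 0.38 in ECs minus fibroblasts (EMPA-Pre-AMI versus Control-AMI), from -0.059 to 0.42 for Sham ECs against fibroblasts, and in fibroblasts from -0.28 to 0.28, -0.30 to 0.27 and -0.20 to 0.16 (Control-AMI versus Sham, EMPA-Pre-AMI versus Control-AMI and versus Sham). Ereg ranged from -0.46 to 3.20 in ECs minus fibroblasts (EMPA-Pre-AMI versus Control-AMI). Hbegf ranged from -0.012 to 0.44 in ECs minus cardiomyocytes (Control-AMI versus Sham), -0.64 to 0.032 in ECs minus fibroblasts and -0.39 to 0.24 in fibroblasts (EMPA-Pre-AMI versus Control-AMI), and -0.29 to 0.13 for Sham cardiomyocytes against ECs. Nrg1 ranged from -0.86 to 2.58 in ECs minus cardiomyocytes (Control-AMI versus Sham).

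Deviations of same-numbered libraries correlated by over 0.1 in 3 of 12 pairs of cardiomyocytes, 4 of 12 of ECs and 6 of 12 of fibroblasts. The highest values were 0.17, 0.21 and 0.48 in that order. Pairs of unlike number were not correlated, so whether the replicate numbers pair the libraries was not settled. With the replicate block, Hbegf in fibroblasts was 1.63 (edgeR, FDR = 0.00607) for Control-AMI and 1.64 (FDR = 0.00561) for EMPA-Pre-AMI versus Sham, both past the threshold. Depth limits Erbb3, Erbb4 and Areg, which were too low for a test in every population.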
